A study of Mus musculus with 35 samples.

Results

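The genes for the enzymes that remove superoxide and peroxides were followed in laser-dissected lumbar motoneurons of 35 mice. The set holds the superoxide dismutases Sod1, Sod2 and Sod3, the copper chaperone Ccs, catalase (Cat), the glutathione peroxidases Gpx1 and Gpx4, and the peroxiredoxins Prdx1, Prdx3 and Prdx5. A probe set of the array was taken where its annotation names exactly 1 gene and that gene is among these 10. This gave 18 of the 45101 probe sets and 8 of the 10 genes, with 5 probe sets for Sod1, 4 for Sod2, 2 each for Sod3, Cat and Gpx4, and 1 each for Ccs, Gpx1 and Prdx3. The 5 probe sets annotated to Prdx1 name another gene as well, and none names Prdx5 alone, so neither gene has a value here.

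Each array held amplified RNA from 300 motoneurons of 1 female mouse. The groups were WT littermates of 11 weeks (labelled C57BL/6J, n = 6), SOD1 mice of 11 weeks (n = 8), WT littermates of 15 weeks (n = 7), vehicle-treated SOD1 mice of 15 weeks (n = 7) and SOD1 mice of 15 weeks given G-CSF (n = 7). SOD1 mice were hemizygous for the transgene of strain B6.Cg-Tg(SOD1-G93A)1Gur/J, a model of amyotrophic lateral sclerosis that carries a mutant human SOD1 gene in high copy number. The human gene's own promoter drives the transgene, so cells other than motoneurons carry its product too. Vehicle or G-CSF, the growth factor that stimulates granulocyte formation, was delivered from week 11 to week 15 by a pump under the skin. WT mice have no pump in the labels, and week goes with cohort, so that age, cohort and (in SOD1 mice) the pump cannot be told apart between the weeks. Both SOD1 groups of week 15 had a pump. If the WT mice of that age had none, genotype and pump cannot be told apart where either group is compared with WT. The probe sets of Sod1 were designed on the mouse gene and need not report the human transgene.

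Superoxide is a by-product of mitochondrial respiration. Superoxide dismutases turn it into hydrogen peroxide, which catalase, glutathione peroxidases and peroxiredoxins then reduce to water. Sod1 is the copper and zinc enzyme of the cytosol, Sod2 the manganese enzyme of the mitochondrial matrix and Sod3 the secreted copper and zinc enzyme, and Ccs loads copper into Sod1. Catalase works mainly in peroxisomes, Gpx1 in the cytosol and mitochondria, Gpx4 on lipid peroxides in membranes, and Prdx3 in mitochondria. Mutant SOD1 causes an inherited form of amyotrophic lateral sclerosis, a disease in which motoneurons die.

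The promoters of Sod1 and Sod2 are shown because the called differences described further on were found in these genes. They come from RefSeq (mouse build GRCm38.p6) and run from 250 bases before to 50 bases after the annotated start, both on the plus strand, Sod1 at chr16:90220512-90220811 and Sod2 at chr17:13007589-13007888. Capitals mark the core of the antioxidant response element (TGACNNNGC), the GC box (GGGCGG) and the TATA box (TATAAA), each searched on both strands, with overlapping GC boxes run together.
Sod1: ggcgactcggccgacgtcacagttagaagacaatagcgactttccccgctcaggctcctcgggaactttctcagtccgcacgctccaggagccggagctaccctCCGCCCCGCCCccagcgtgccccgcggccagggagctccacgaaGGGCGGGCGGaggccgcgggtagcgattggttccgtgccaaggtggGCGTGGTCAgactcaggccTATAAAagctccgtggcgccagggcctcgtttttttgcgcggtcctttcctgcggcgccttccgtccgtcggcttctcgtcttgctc
Sod2: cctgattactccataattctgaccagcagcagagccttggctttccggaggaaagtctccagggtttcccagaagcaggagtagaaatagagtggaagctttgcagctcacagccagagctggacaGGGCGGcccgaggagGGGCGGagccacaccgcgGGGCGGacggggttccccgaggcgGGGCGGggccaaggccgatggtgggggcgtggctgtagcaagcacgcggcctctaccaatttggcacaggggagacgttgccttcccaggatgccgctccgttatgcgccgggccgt
The Sod1 window holds 1 match to the antioxidant response core, 4 to the GC box and 1 to the TATA box, and the Sod2 window holds 4 GC boxes and neither of the others. Of 32851 mouse promoter windows of this length, 12.4% hold the antioxidant response core, 35.7% the GC box and 13.6% the TATA box. Among the 8 genes of the set that have an entry, all 8 hold a GC box, 2 (Sod1 and Prdx1) the antioxidant response core and 3 (Sod1, Prdx1 and Prdx3) a TATA box. A gene was counted where any of its windows held the match, while the shares above count single windows. The TATA match of Prdx3 lies 239 bases before the start. Sod3 and Ccs were not matched to an entry. Of 33 surrounding genes of the peroxidase, thioredoxin, glutathione, NADPH and copper systems with an entry, 8 hold the antioxidant response core. Among these 8, Msrb2 and Pgd had no called probe set, and G6pdx had no probe set naming it alone and so no value. Txn1, Txn2, Gss and Idh1 had a called probe set and do not hold the core. Windows of 25 bases around the core are set side by side for both genes of the set that hold it. Beside them stand the 5 surrounding genes that hold it and had a called probe set, a choice made from the calls. Capitals mark the core, which lies on the opposite strand in each of them but Me1 and Atox1 and then reads GCNNNGTCA. They lie at chr16:90220698-90220722 (Sod1), chr4:116685458-116685482 (Prdx1), chr3:122245415-122245439 (Gclm), chr2:152105544-152105568 (Srxn1), chr10:82859106-82859130 (Txnrd1), chr9:86695904-86695928 (Me1, minus strand) and chr11:55461266-55461290 (Atox1, minus strand).
Sod1: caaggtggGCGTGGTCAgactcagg
Prdx1: gggaaagcGCTGAGTCAtcccccgt
Gclm: tcccgggcGCACCGTCAactctcac
Srxn1: agtgggcaGCTAGGTCAgagtgaga
Txnrd1: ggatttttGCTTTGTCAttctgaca
Me1: tgccgccgTGACTCAGCgcttctcg
Atox1: ccgggcctTGACGAAGCtagccccg
A match describes the letters only, and no occupancy was measured.

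The deposited values are log2 intensities after GCRMA, a normalization that subtracts a background estimated from probe sequence and leaves dim probe sets near 1 low value. The filter of the methods asks that 4 arrays or more exceed the 20th centile (2.40) and that the SD over the arrays reach the 30th centile (0.241). It kept 31352 probe sets, among them 13 of the 18, with at least 1 for each of the 8 genes. The 5 that did not pass were Sod1 1459976_s_at and 1447761_x_at, Sod2 1448610_a_at, Sod3 1417634_at and Cat 1416429_a_at, and their differences come from a fit of all probe sets, with no call. A call needed 3 things from limma, fitted over all 5 groups: a fold change of 1.5 or more, an unadjusted p under 0.05 and a p under 0.1 after Benjamini-Hochberg adjustment over all tested probe sets. Probe sets bind with unequal strength, so levels are compared between mice and not between probe sets.

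The labelled cell type was checked against markers. On every array, 10 of 10 general neuron markers and 8 of 10 motoneuron markers lay over the array's median, while Chat, the acetylcholine-synthesizing enzyme that defines motoneurons, read 2.49 to 5.00. Markers of other cell types were present as well. Over the median on every array lay 8 of 10 astrocyte markers, 7 of 9 oligodendrocyte markers, with Mbp of myelin at 11.42 to 12.60, and 5 of 10 microglia markers, with Tyrobp at 3.01 to 8.58, Aif1 at 1.80 to 3.05 and Itgam at 1.83 to 2.77. Gfap of astrocytes had a mean of 4.57 in WT mice of week 11, 6.71 in SOD1 mice of week 11, 4.78 in WT mice of week 15, 8.48 in vehicle-treated and 7.56 in G-CSF-treated mice. Of the 10 astrocyte markers 1 was called higher in SOD1 than in WT mice at week 11 (median difference 0.20), in vehicle-treated mice at week 15 (median -0.07) and in G-CSF-treated mice (median -0.31). Among the arrays, 3 lay away from the rest of their group, those of vehicle-treated mice 3 and 5 and of WT mouse 6 of week 11. No fixed rule picked these 3. G-CSF-treated mouse 3, whose array values spread least in its group (SD 2.15), was not among them. The SD of all values on an array, a measure of how far bright and dim probe sets spread, had group means of 2.30, 2.36, 2.29, 2.22 and 2.23 in the same order of groups, and the mean of the 10 general neuron markers went the same way (10.37, 10.67, 10.34, 10.01 and 10.05). In bulk RNA of this kind, fewer cells of a type and less RNA per cell cannot be told apart.

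Few members of the set differed between the groups. At week 11, 0 of 13 probe sets were called between SOD1 and WT mice (4 had an unadjusted p under 0.05 with limma), where 1.32% of all probe sets were called and 11% had such a p. At week 15, 1 of 13 was called between vehicle-treated SOD1 and WT mice, Sod2 1454976_at, which was lower, where 5.91% of all were called and 4.2% were called lower. An unadjusted p under 0.05 was found for 2 of 13 there and for 19.5% of all. Between G-CSF and vehicle 0 of 13 were called and 0 had an unadjusted p under 0.05, where 0.0383% and 8.3% of all did. Between G-CSF-treated SOD1 and WT mice 0 of 13 were called (1 with an unadjusted p under 0.05), where 1.13% and 12.7% of all were. Between the weeks, the SOD1 effects differed by a call for 1 of 13, Sod1 1451124_at, which was lower, where 2.93% of all were called and 2.15% were called lower. In that comparison 4 of 13 had an unadjusted p under 0.05, against 18.1% of all. Between WT mice of week 15 and of week 11, 0 of 13 were called and 3 had an unadjusted p under 0.05, where 5.56% and 17.4% of all did. In none of the 5 comparisons of groups did a member's values separate 2 groups without overlap, which happened for 0.0128% to 2.99% of all probe sets.

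The direction of the members was uneven. At week 11, 9 of 13 differences (SOD1 minus WT) were above 0, with a median log2 difference of 0.13 against -0.01 over all probe sets, of which 48.6% lay above 0. At week 15, 10 of 13 (vehicle minus WT) were below 0, with a median of -0.20 against 0.02 over all, of which 47.3% lay below 0. Without the 3 arrays that stood apart, 7 of 13 were above 0 at week 11 and 10 of 13 below 0 at week 15. With quantile normalization these counts were 9 of 13 and 9 of 13. Between G-CSF and vehicle 9 of 13 lay above 0 with a median of 0.17, against -0.00 over all (49.8% above 0), and the same 9 of 13 count was found under both alternatives. Below 0 lay 10 of 13 between G-CSF-treated and WT mice (median -0.18, 48.3% of all), 10 of 13 for the difference of the SOD1 effects (median -0.38, 48.3% of all) and 10 of 13 between WT mice of both weeks (median -0.31, 51.8% of all). Several probe sets of the set report the same gene and are not independent. The week 15 comparisons share the vehicle-treated or the WT mice.

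**Figure D1:**
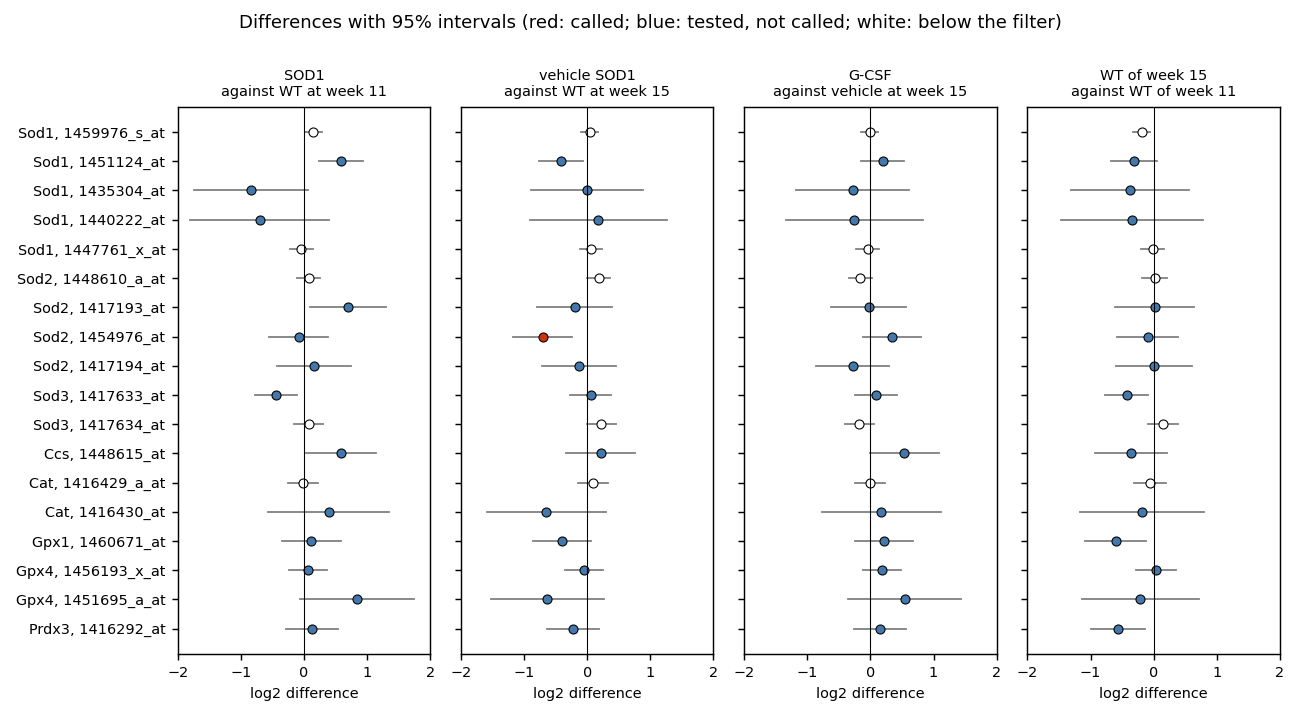
Log2 differences (x axis) of the 18 probe sets (rows) in 4 comparisons, each with its 95% interval from limma. Red marks a called probe set, blue one that was tested and not called, and white one below the filter. Sod2 1454976_at at week 15, at -0.71, is the only red point.

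Sod1 1451124_at was the only member whose SOD1 effect differed between the weeks by a call. In WT mice of week 11 it read 10.47 at the lowest, 11.42 at the median and 11.73 at the highest. In SOD1 mice of week 11 these values were 11.60, 11.82 and 12.26. The SOD1 mice stood high at this age, and 7 of 8 lay above every WT mouse. At week 15 the WT mice ran from 10.73 over a median of 10.99 to 11.13, and the vehicle-treated SOD1 mice from 9.79 over 10.64 to 11.07. Here the SOD1 mice stood low, with 5 of 7 below every WT mouse. The G-CSF-treated mice ran from 10.43 over 10.69 to 11.09, inside the range of the vehicle-treated mice but for 1 mouse. The difference of SOD1 from WT was 0.58 ± 0.17 (SE, log2) at week 11, just under the fold limit, with an adjusted p of 0.109. It was called without WT mouse 2 (0.67, adjusted p = 0.0883) or 4 (0.62, adjusted p = 0.0948). It was -0.42 ± 0.17 at week 15 (adjusted p = 0.163), so that neither passed on its own. The difference between both effects did pass, at -0.999 ± 0.24 (95% interval -1.49 to -0.51, adjusted p = 0.0498). G-CSF minus vehicle was 0.19 (95% interval -0.15 to 0.54), and the order of the group means was SOD1 at week 11 (11.86), WT at week 11 (11.28), WT at week 15 (10.96), G-CSF (10.74) and vehicle (10.55). None of the 4 steps between neighbours in that order was called.

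This probe set followed the spread of the arrays closely. Over the 35 arrays its Pearson correlation with the SD of all values on the array was 0.90, and 0.79 for deviations from the group means, which describes these arrays and carries no test. With the array SD as a covariate, added after the data were seen, the difference between the weeks was -0.34 with an adjusted p of 0.761, and 3 of all 31352 probe sets were called in that comparison in place of 919. The array SD itself went with genotype. At week 11 it ran from 2.347 to 2.375 in SOD1 and from 2.131 to 2.343 in WT mice, without overlap. At week 15 it ran from 2.087 to 2.265 in vehicle-treated and from 2.252 to 2.314 in WT mice. A fit with this covariate can thus hardly separate genotype from spread, and a call lost in it does not show that the difference was absent. Under quantile normalization, which gives every array the same spread, the difference was -0.90 (adjusted p = 0.06). Without the 3 arrays that stood apart it was -0.79 (adjusted p = 0.0581). Without any 1 of the 35 mice it lay between -1.09 and -0.84 and kept its call. In the same comparison 3 of 10 motoneuron markers (median -0.93), 2 of 10 general neuron markers (median -0.64) and 2 of 9 oligodendrocyte markers (median -0.78) were called lower and 1 of 10 microglia markers higher (median 0.69), and their part in the Sod1 difference was not tested.

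The other probe sets of Sod1 did not share this pattern. 1459976_s_at, which varied little (SD 0.167 over the 35 arrays), had group means of 12.55, 12.70, 12.36, 12.40 and 12.38 in the order WT and SOD1 of week 11, WT, vehicle and G-CSF of week 15. Its SOD1 mice of week 11 lay 0.15 above WT (95% interval 0.01 to 0.28, adjusted p = 0.403), and 2 of 8 were above every WT mouse. At week 15 the difference of vehicle from WT was 0.04 (95% interval -0.10 to 0.17). The difference between the weeks was -0.11 (95% interval -0.30 to 0.08), a range that does not reach the -0.999 of 1451124_at. 1435304_at stood lower in SOD1 than in WT mice of week 11, with 5.23, 6.22 and 6.85 against 6.39, 6.89 and 8.00 (lowest, median and highest). Its difference was -0.84 (95% interval -1.74 to 0.07, adjusted p = 0.506), opposite in sign to that of 1451124_at. At week 15 it spread from 4.82 to 8.12 in vehicle-treated mice, across the whole range of WT mice. 1440222_at read 2.12 to 6.18 over all mice and 1447761_x_at 2.06 to 2.62, the latter over the 20th centile on 9 of 35 arrays, and for neither was an adjusted p in any of the 6 comparisons under 0.1. Over the 35 arrays 1451124_at correlated at 0.64 with 1459976_s_at and at -0.38 with 1435304_at. For deviations from the group means these values were -0.04 and -0.58.

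**Figure D2:**
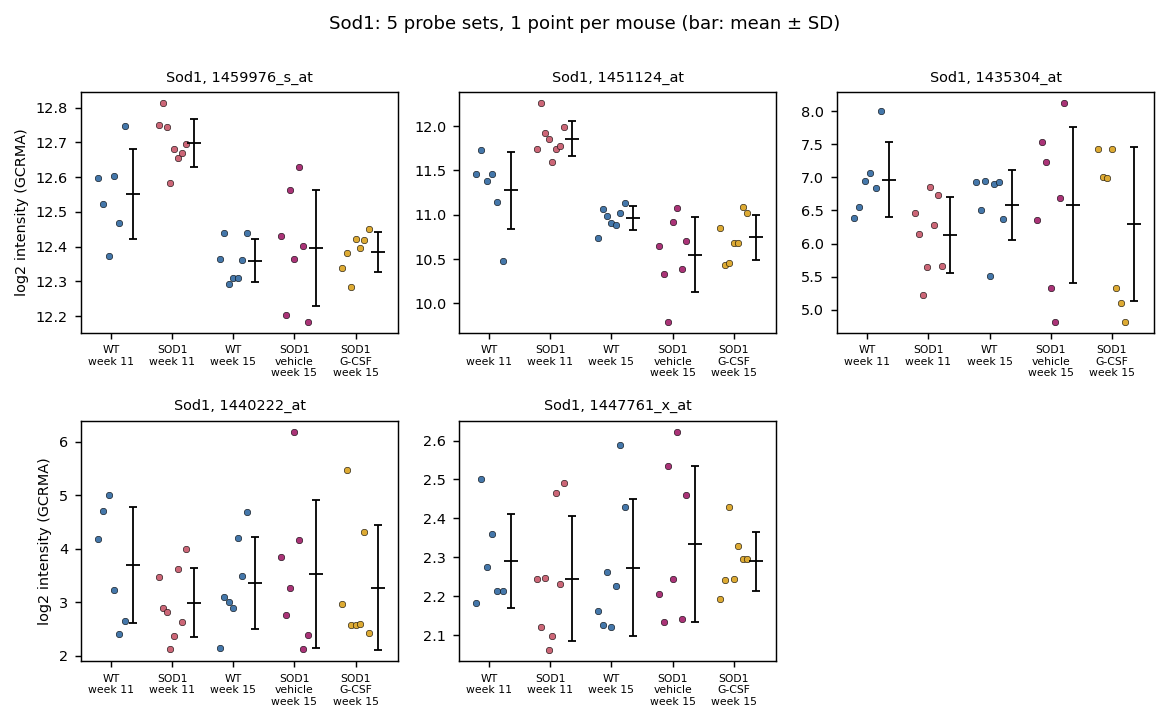
Log2 intensity (y axis, scale differs between panels) of the 5 Sod1 probe sets, with 1 point per mouse and a bar for the mean ± SD of each group. In 1451124_at, 7 of 8 SOD1 mice of week 11 lie above all WT mice of that age and 5 of 7 vehicle-treated mice below all WT mice of week 15.

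Sod2 gave the only called difference between groups. At week 15, 1454976_at read 6.64 at the lowest, 7.04 at the median and 7.50 at the highest in WT mice, and 5.65, 6.43 and 6.92 in vehicle-treated SOD1 mice. In the latter group 5 of 7 mice lay below every WT mouse. The difference was -0.71 ± 0.23 (SE, log2, a 1.63-fold fall, adjusted p = 0.0733). The G-CSF-treated mice read 6.08, 6.91 and 7.13 and so overlapped both groups. Their difference was 0.34 from vehicle (95% interval -0.12 to 0.81) and -0.37 from WT (95% interval -0.83 to 0.10). At week 11 the SOD1 mice (6.20, 7.19 and 7.32) overlapped the WT mice (6.02, 7.36 and 7.66), with a difference of -0.08 (95% interval -0.55 to 0.39). The change in the SOD1 effect from week 11 to week 15, -0.62 (95% interval -1.29 to 0.04), was not called and was -0.40 without WT mouse 6 of week 11. The week 15 call ended without vehicle-treated mouse 5 or 6 or WT mouse 1, 4, 6 or 7, each left out in turn, with differences of -0.71 to -0.59 and adjusted p-values of 0.11 to 0.156. It also ended under quantile normalization (-0.57, adjusted p = 0.134) and with the array SD as a covariate (-0.43, adjusted p = 0.444). In the same comparison 3 of 10 general neuron markers and 2 of 10 motoneuron markers were called lower and 4 of 10 microglia markers higher, and their part in the Sod2 difference was not tested.

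The remaining Sod2 probe sets had no call at week 15. 1417193_at had a difference of -0.20 there (95% interval -0.79 to 0.40), 1417194_at -0.13 (95% interval -0.71 to 0.45) and 1448610_a_at 0.18 (95% interval -0.01 to 0.37). The first 2 of these intervals include the -0.71 of 1454976_at. At week 11, 1417193_at stood at 10.17, 10.28 and 10.42 in SOD1 mice and at 7.18, 10.09 and 10.18 in WT mice. All but 1 of the 8 SOD1 mice lay above every WT mouse. The difference of 0.69 (adjusted p = 0.353) fell to 0.21 without WT mouse 6, whose 7.18 lay far under the 9.96 to 10.18 of the other WT mice. Deviations from the group means correlated at 0.56 between 1417193_at and 1454976_at and at 0.39 between 1448610_a_at and 1454976_at over the 35 arrays.

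**Figure D3:**
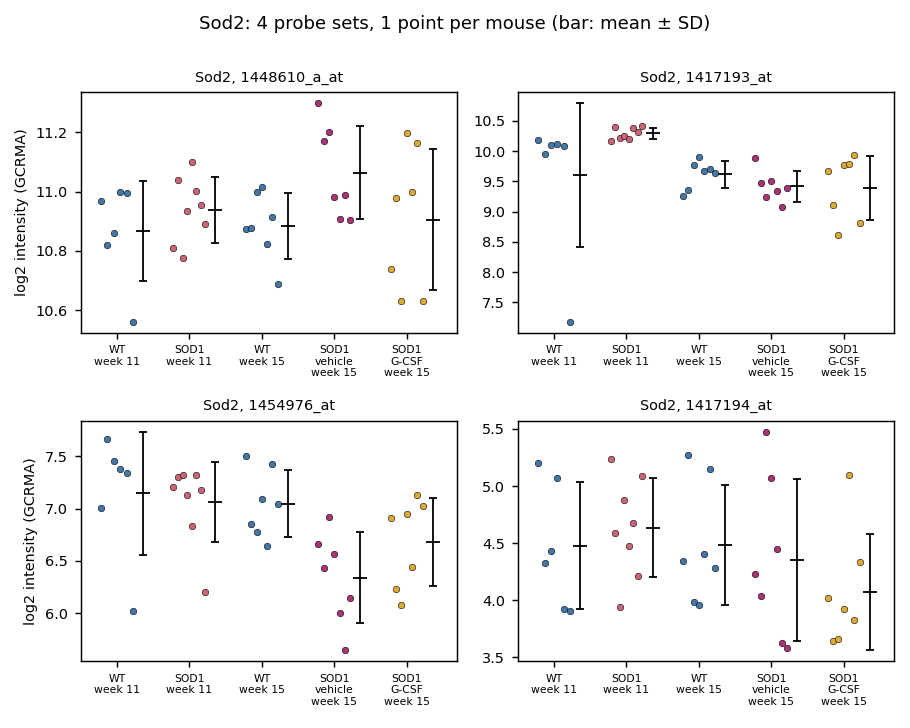
Log2 intensity (y axis, scale differs between panels) of the 4 Sod2 probe sets, with 1 point per mouse and a bar for the mean ± SD of each group. In 1454976_at, 5 of 7 vehicle-treated mice lie below all WT mice of week 15, and in 1417193_at WT mouse 6 of week 11 lies apart at 7.18.

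Sod3 and Ccs, the secreted dismutase and the copper chaperone, had no call. Sod3 1417633_at read 4.05, 4.39 and 5.40 in WT and 3.87, 4.04 and 4.22 in SOD1 mice of week 11. The SOD1 mice stood lower, with 4 of 8 below every WT mouse and a difference of -0.44 (95% interval -0.78 to -0.11, adjusted p = 0.244). It was -0.26 without WT mouse 6, the highest of its group at 5.40. At week 15 the differences were 0.05 for vehicle and 0.14 for G-CSF against WT. Sod3 1417634_at, which did not pass the filter, read 2.51 to 3.54 over all mice. Ccs 1448615_at had the lowest p of the members between G-CSF and vehicle. The WT mice of week 15 read 4.99, 5.82 and 6.42, the vehicle-treated mice 5.44, 5.85 and 6.82 and the G-CSF-treated mice 5.77, 6.55 and 7.01. Above every WT mouse lay 4 of 7 G-CSF-treated mice and 1 of 7 vehicle-treated mice, while 1 of 7 G-CSF-treated mice lay above every vehicle-treated mouse. The difference of G-CSF was 0.54 ± 0.27 from vehicle (95% interval -0.01 to 1.09, adjusted p = 0.604) and 0.75 ± 0.27 from WT (95% interval 0.21 to 1.30, adjusted p = 0.206). At week 11 the SOD1 mice read 5.92, 6.57 and 7.51 and the WT mice 5.14, 6.12 and 6.92, a difference of 0.59 (95% interval 0.04 to 1.14, adjusted p = 0.41).

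Catalase had no call in either probe set. 1416429_a_at had group means between 9.61 and 9.69, and its 95% interval for vehicle against WT, -0.15 to 0.33, leaves out a 1.5-fold change. 1416430_at spread more, with 7.33, 8.03 and 8.25 in WT mice of week 15 and 5.47, 7.13 and 8.40 in vehicle-treated mice. Below every WT mouse lay 5 of 7 vehicle-treated mice, and 1 lay above all of them, with a difference of -0.65 (95% interval -1.60 to 0.29) that was -0.36 without vehicle-treated mouse 3. G-CSF-treated mouse 3 read 3.69 while the other 6 ran from 7.87 to 8.24.

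The glutathione peroxidases and Prdx3 had no call between groups in the 6 comparisons. Gpx1 1460671_at had group means of 9.84 in WT and 9.96 in SOD1 mice of week 11, 9.24 in WT, 8.84 in vehicle-treated and 9.06 in G-CSF-treated mice of week 15. Prdx3 1416292_at ran alongside with 10.03, 10.15, 9.46, 9.22 and 9.38. For both genes the WT mice of week 15 stood lower than those of week 11, at -0.60 (95% interval -1.08 to -0.12, adjusted p = 0.158) for Gpx1 and -0.57 (95% interval -0.999 to -0.14, adjusted p = 0.129) for Prdx3. Without WT mouse 6 of week 11 these were -0.72 and -0.80 with adjusted p-values of 0.0812 and 0.0078, and both passed. In vehicle-treated mice the difference from WT was -0.40 (95% interval -0.86 to 0.06) for Gpx1 and -0.23 (95% interval -0.64 to 0.18) for Prdx3. Gpx4, the lipid peroxide reductase, had group means in 1456193_x_at between 11.21 and 11.39. Gpx4 1451695_a_at stood at 7.96, 8.60 and 9.71 in SOD1 and 7.26, 7.71 and 8.92 in WT mice of week 11, a difference of 0.84 (95% interval -0.06 to 1.74). At week 15 it stood at 3.55, 7.44 and 8.00 in vehicle-treated and 7.23, 7.66 and 7.91 in WT mice, with the low value from mouse 3, which stood apart. The difference between the weeks was -1.47 (95% interval -2.74 to -0.20, adjusted p = 0.209), and -0.90 without that mouse.

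**Figure D4:**
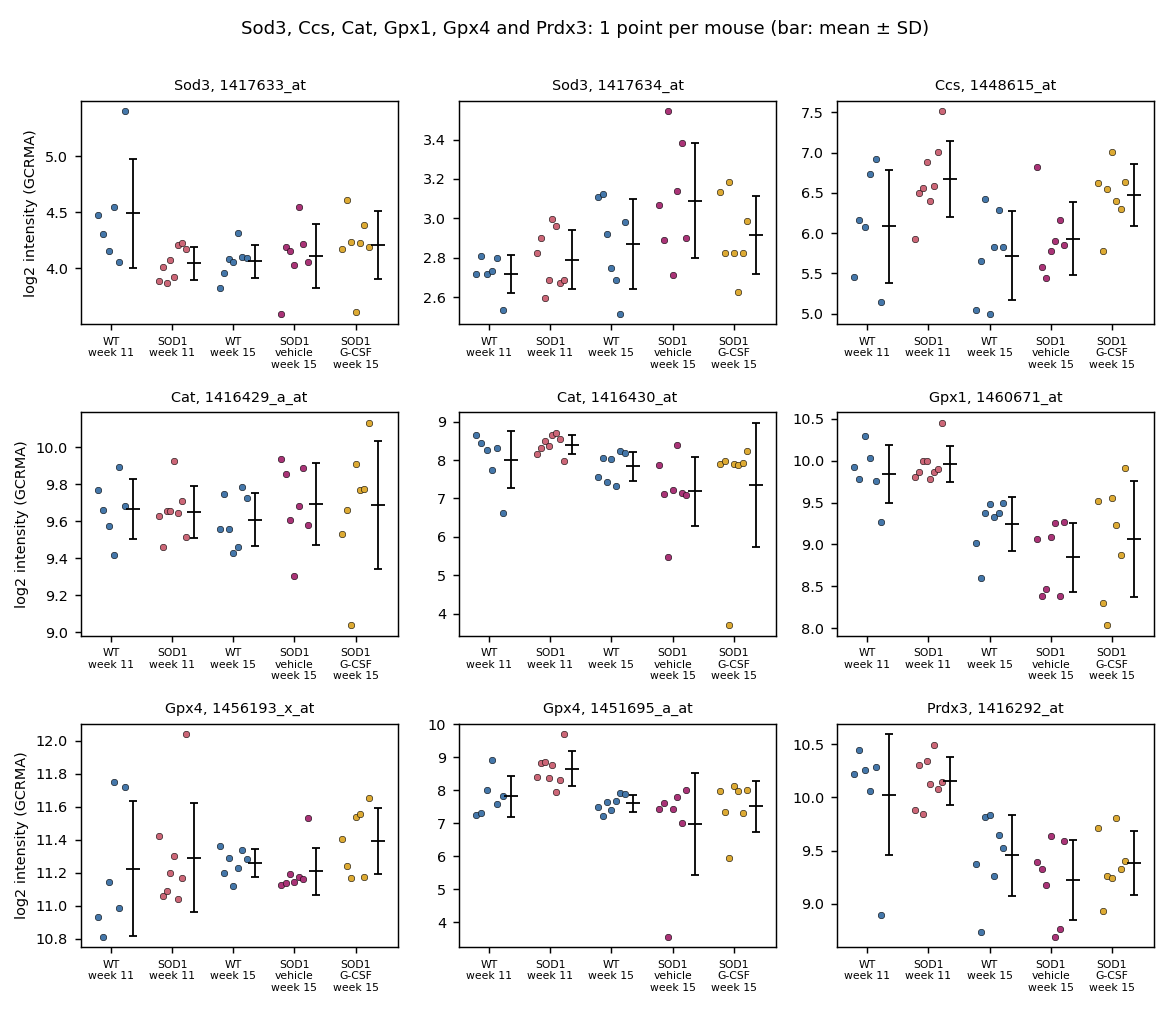
Log2 intensity (y axis, scale differs between panels) of the 9 probe sets of Sod3, Ccs, Cat, Gpx1, Gpx4 and Prdx3, with 1 point per mouse and a bar for the mean ± SD of each group. The WT mice of week 15 have lower means than those of week 11 in Gpx1 (9.24 against 9.84) and Prdx3 (9.46 against 10.03), with overlapping points, and single mice lie far below their group in Cat 1416430_at (3.69) and Gpx4 1451695_a_at (3.55).

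Members differed in how closely they followed the array spread. The correlation with the array SD over 35 arrays was 0.82 for Sod2 1417193_at, 0.81 for Gpx1, 0.78 for Prdx3, 0.77 for Cat 1416430_at and 0.73 for Gpx4 1451695_a_at. It was 0.41 for Sod1 1459976_s_at, 0.05 for Cat 1416429_a_at, 0.02 for Sod2 1448610_a_at, -0.11 for Gpx4 1456193_x_at and 0.03 for Sod1 1440222_at. The part of the array spread in the differences between groups was not tested beyond the covariate fits given here, which can hardly separate it from genotype.

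The genes with the most similar pattern over the 35 arrays were sought among 14256 other named genes, by the highest Pearson correlation. For Gpx1 they were Laptm4b (0.92), Ndufb5 (0.91) and Rab24 (0.91). For Prdx3 they were Chn1 (0.88), Isca2 (0.88) and Clpx (0.87). For Sod1 1459976_s_at they were Ccdc85b (0.86), Spire2 (0.84) and Hspe1 (0.83), and for 1451124_at, chosen after its values were seen, Eif1b (0.94), Sult4a1 (0.93) and Mtch1 (0.92). The likeness was weaker for the other members, with a highest value of 0.73 for Sod2 1448610_a_at (Slc22a23), 0.78 for Sod3 (Cyp24a1), 0.66 for Ccs (Cst3), 0.63 for Cat (Zfhx4) and 0.71 for Gpx4 (Mpo). All these points share arrays, and with them the spread described above.

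The enzymes around the set supply it with reduced thioredoxin, glutathione, NADPH and copper. Of 39 such genes 37, all but Prdx6 and G6pdx, had a probe set naming 1 gene, with 76 probe sets of which 70 passed the filter. At week 11, 1 of 70 was called higher and 0 lower in SOD1 mice, where 1.32% of all probe sets were called. At week 15, 2 were called higher and 3 lower in vehicle-treated mice (5.91% of all called), and 0 were called between G-CSF and vehicle (0.0383% of all called, and 4 of the 70 had an unadjusted p under 0.05 with limma). Against WT, G-CSF-treated mice had 1 called higher and 1 lower (1.13% of all called). The difference between the weeks was called for 7, all lower (2.93% of all called, 2.15% lower), and between WT mice of both weeks 1 was called higher and 4 lower (5.56% of all called). The median difference of the 70 was 0.12 at week 11 and -0.06 at week 15.

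Thioredoxin reductase 1 (Txnrd1), the NADPH-driven enzyme that keeps thioredoxin reduced, was called higher at week 11 in 1421529_a_at and not in 1424486_a_at or 1424487_x_at. 1421529_a_at read 8.29, 8.92 and 9.23 in SOD1 and 5.99, 7.83 and 8.41 in WT mice, and 6 of 8 SOD1 mice lay above every WT mouse. The difference was 1.21 ± 0.29 (adjusted p = 0.0391), 0.89 without WT mouse 6 (adjusted p = 0.121) and 0.72 with the array SD as a covariate (adjusted p = 0.238). The call also ended with the groups of week 11 alone (adjusted p = 0.108) and without the 3 arrays that stood apart (adjusted p = 0.111). At week 15 the vehicle-treated and WT means were 7.72 and 7.86. The mitochondrial thioredoxin Txn2 was lower in the difference between the weeks in both called probe sets, at -0.91 for 1455640_a_at (adjusted p = 0.0535) and -1.08 for 1452782_a_at (adjusted p = 0.0764). Of the thioredoxin and glutaredoxin list, 29 probe sets of 14 genes, none was called at week 15 against WT. Srxn1 1419942_at stood higher in 7 of 7 vehicle-treated mice than in every WT mouse, where 1.5% of all probe sets did not overlap, but its 0.53 (adjusted p = 0.0488) was under the fold limit. Between WT mice of both weeks, Txn1 1416119_at (-0.68, adjusted p = 0.00583), the cytosolic thioredoxin, and Srxn1 1426875_s_at (-0.88, adjusted p = 0.0638), which repairs overoxidized peroxiredoxins, were lower at week 15. For Txn1 the groups did not overlap, with 10.40 to 11.00 at week 15 and 11.05 to 11.47 at week 11, where 2.99% of all probe sets did not overlap.

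Of the 5 calls at week 15, 1 lay in glutathione synthesis, 3 in NADPH supply and 1 among the copper genes. Other probe sets of Gclm, Me1, Idh1 and Nnt were not called in vehicle-treated against WT mice. Gclm 1439050_at, the modifier subunit of the enzyme that starts glutathione synthesis, read 4.44, 5.78 and 6.01 in vehicle-treated and 5.81, 6.87 and 7.31 in WT mice. It fell by 1.29 on the log2 scale (adjusted p = 0.0246), and 5 of 7 vehicle-treated mice lay below every WT mouse. Its other probe set, 1418627_at, was lower after G-CSF than in WT mice (-1.16, adjusted p = 0.0503), but not without G-CSF-treated mouse 2, 3 or 7 or WT mouse 3 (adjusted p of up to 0.122), with the groups of the comparison alone (0.105) or with the array SD as a covariate (0.191). Malic enzyme Me1 1416632_at, an NADPH source, read 6.71, 7.28 and 8.00 in vehicle-treated and 7.90, 8.26 and 8.38 in WT mice. It fell by 0.89 (adjusted p = 0.00469), with 6 of 7 below every WT mouse. Idh1 1419821_s_at, another NADPH source, fell by 0.95 (adjusted p = 0.09), a call that ended when any of 10 of the 35 mice was left out, with the groups of the comparison alone (adjusted p = 0.221) and under quantile normalization (adjusted p = 0.126). With the array SD as a covariate none of these 3 kept its call. The differences were then -0.89 for Gclm, -0.54 for Idh1 and -0.56 for Me1, which kept an adjusted p of 0.0771 but missed the fold limit. Nnt 1456573_x_at, the mitochondrial transhydrogenase that makes NADPH, was higher than in WT mice of week 15 in vehicle-treated (0.99, adjusted p = 0.0564) and G-CSF-treated mice (1.34, adjusted p = 0.0267). The former call ended without vehicle-treated mouse 3 or WT mouse 5 or 6 (adjusted p of up to 0.128), and with the array SD as a covariate (0.78, adjusted p = 0.292). With the groups of each comparison alone neither was called (adjusted p = 0.135 and 0.104). In WT mice it was lower at week 15 than at week 11 (-1.20, adjusted p = 0.0212), as was Nnt 1416105_at (-1.41, adjusted p = 0.0944). Gclm 1418627_at was higher in WT mice of week 15 than of week 11 (0.92, adjusted p = 0.0759). Leaving out 1 mouse at a time ended the WT calls of Srxn1 in 6, Gclm in 9 and Nnt 1416105_at in 18 of 35 fits.

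Of the copper genes, Atox1 1446802_at, a probe set of the copper chaperone for the secretory pathway, was called higher in vehicle-treated mice. It read 2.94, 4.90 and 6.95 there and 2.61, 2.91 and 4.10 in WT mice, a difference of 1.75 ± 0.54 (adjusted p = 0.0584). The call ended without vehicle-treated mouse 1 or 6 or WT mouse 3, with adjusted p-values of up to 0.136. It also ended with the groups of the comparison alone and with the array SD as a covariate (1.77), each with an adjusted p of 0.176. The brighter Atox1 probe sets gave -0.12 for 1415760_s_at (95% interval -0.55 to 0.31) and 0.04 for 1460639_a_at (95% interval -0.47 to 0.55), and 1460640_at did not pass the filter. Among the other peroxiredoxins and glutathione peroxidases, 11 probe sets of 7 genes, 0 were called in the 6 comparisons, and the lowest p at week 15 belonged to Prdx2 1430979_a_at (unadjusted p = 0.0201, adjusted p = 0.164 with limma). The 18S ribosomal control probe set ran from 9.23 to 11.22 over both groups of week 11 and from 12.27 to 13.50 over the 3 groups of week 15. These ranges do not overlap, so a fit with 18S as a covariate can hardly separate week from 18S. In that fit the calls of Txn1, Srxn1, Gclm and Nnt between WT mice of both weeks ended, with adjusted p-values of 0.376 to 0.958. The loss of these calls does not show that the differences were absent.

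**Figure D5:**
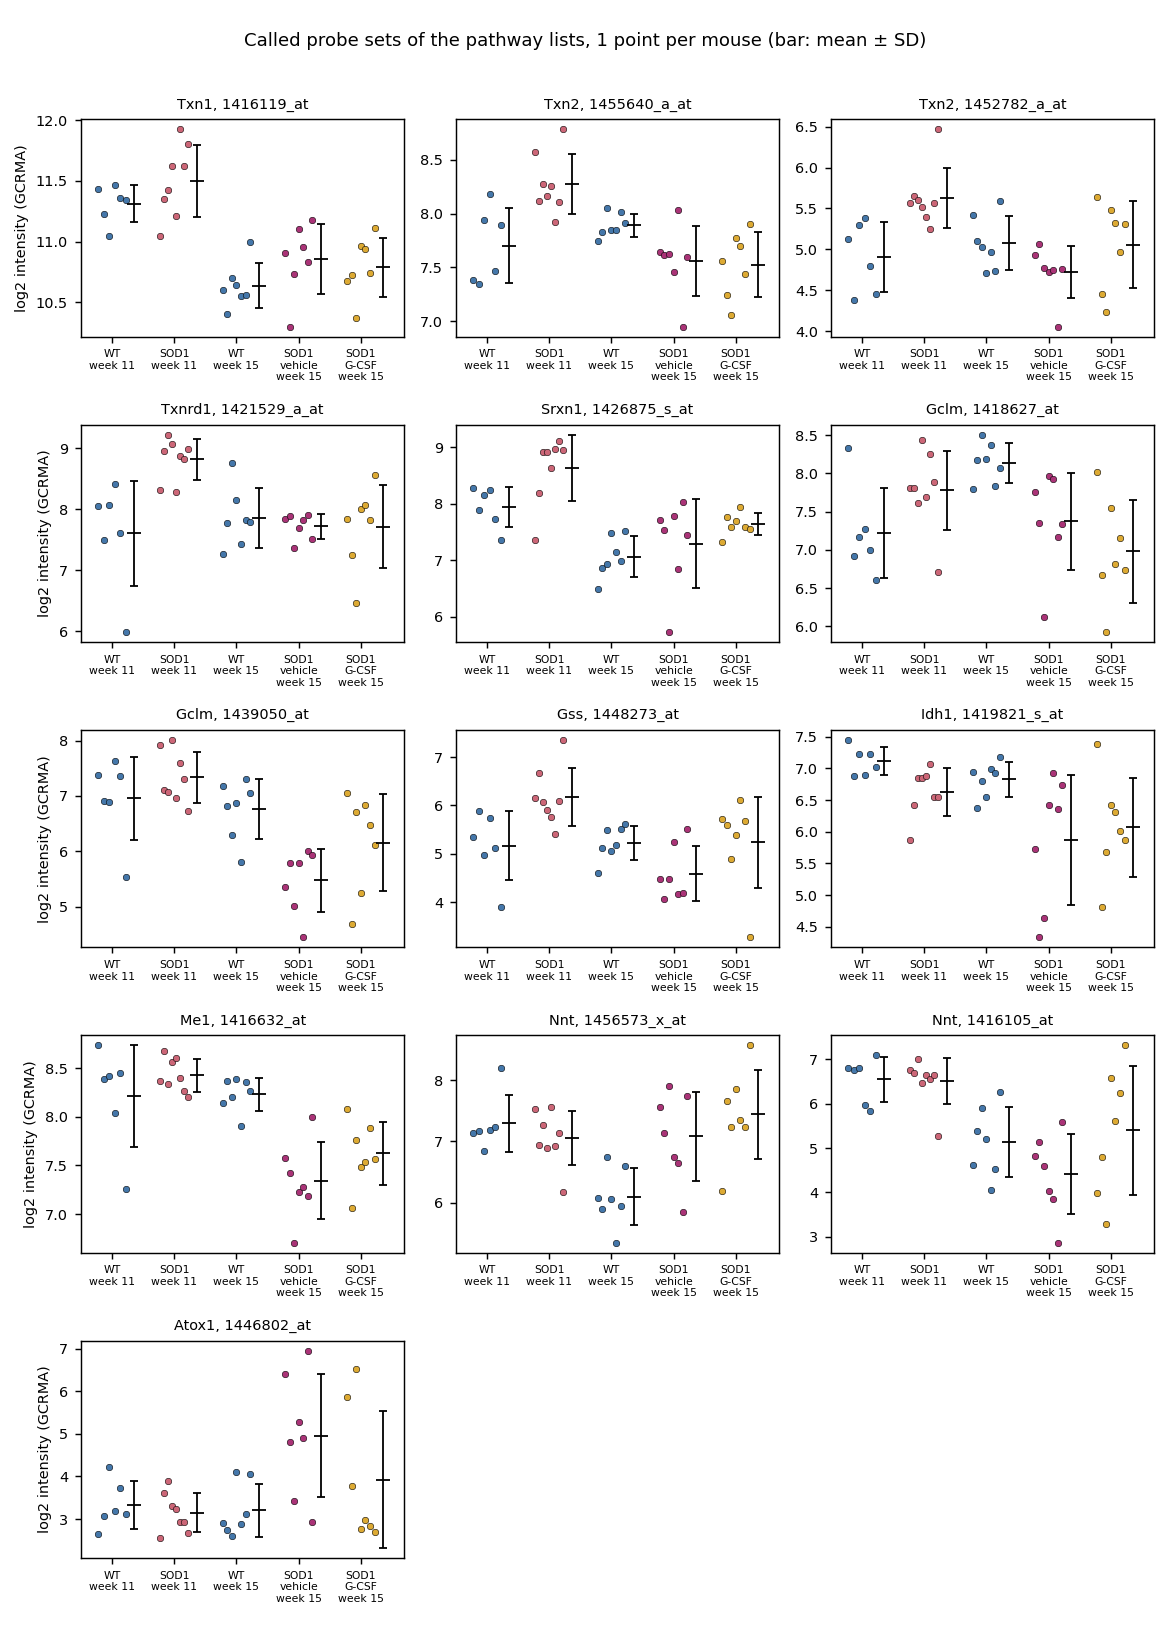
Log2 intensity (y axis, scale differs between panels) of the 13 probe sets of 10 genes that were called in any of the 6 comparisons, with 1 point per mouse and a bar for the mean ± SD of each group. In Me1, 6 of 7 vehicle-treated mice lie below all WT mice of week 15, and in Txnrd1, 6 of 8 SOD1 mice of week 11 lie above all WT mice of that age.

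The SOD1 effect of week 15 minus that of week 11 was below 0 in all 7 called probe sets of these lists and in Sod1, where 675 of the 919 called among all probe sets were lower. Under quantile normalization 1 of the 7 was called, Me1 (-0.86, adjusted p = 0.0769). For Txnrd1 it was -1.35 (adjusted p = 0.0899), for Gclm -1.32 and -1.68 (adjusted p = 0.0976 and 0.0793), for Gss 1448273_at, which completes glutathione, -1.65 (adjusted p = 0.0861), and for Me1 -1.10 (adjusted p = 0.0436). Other probe sets of Txn2, Txnrd1, Gss and Me1 were not called in this comparison. With the array SD as a covariate none of the 8 probe sets, Sod1 and both called ones of Txn2 included, was called. Leaving out 1 mouse at a time ended the call of Me1, Sod1 and Txn2 1455640_a_at in 0 of 35 fits, of Txn2 1452782_a_at and Gclm 1439050_at in 9 each, of Gss in 15, of Txnrd1 in 17 and of Gclm 1418627_at in 25.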

How the data were processed

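RNA of 300 laser-dissected motoneurons per mouse was amplified and hybridized to 1 Affymetrix Mouse Genome array each. The authors deposited log2 intensities, normalized by GCRMA in Affymetrix Expression Console (the version of neither is given in the sources used here). Scanner files were not used here. Groups were taken from the labels, and probe sets were named from the platform annotation, in which 34958 name 1 gene, 932 several and 9211 none.

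From these values, limma 3.58.1 (R 4.3.3) fitted 1 mean per group over all 35 arrays, on the 31352 probe sets that passed the filter of the methods, with Benjamini-Hochberg adjustment over all of them. The fit was tested on simulated data. Figures were drawn with matplotlib 3.10.9 in Python 3.11.15. Each array is 1 mouse, and the number of mice limits the precision.

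Every member was named, with each of its probe sets. Of the surrounding lists, called probe sets were named, or the one with the lowest p of a list without a call where it is given. The members and lists were chosen with earlier results of these data known. Alternatives were quantile normalization, no filter, no fold limit, the groups of a comparison alone, array weights, an intensity trend with a robust prior, ANOVA with Tukey's test (the methods' test), the 18S control as a covariate, a replicate block, leaving out each mouse and leaving out the 3 arrays that stood apart. The Gapdh 3′ to 5′ difference and the array SD as covariates were chosen after seeing the data.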

Additional observations from a re-analysis of the deposited data

Results flagged for a closer look

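In 12 of 90 groups of values 1 mouse lay far from the others of its group, by a gap to the nearest other mouse that, as a share of the group's range, passed Dixon's 95% critical value. Chance gives about 1 in 20 groups that pass, and these groups share mice and arrays and are not independent. WT mouse 6 of week 11 accounted for 4 of them, with 7.18 in Sod2 1417193_at (others 9.96 to 10.18), 5.40 in Sod3 1417633_at (others 4.05 to 4.55), 2.53 in Sod3 1417634_at and 8.89 in Prdx3. SOD1 mouse 8 of week 11 accounted for 3, with 6.20 in Sod2 1454976_at, 10.46 in Gpx1 and 12.04 in Gpx4 1456193_x_at. G-CSF-treated mouse 3 read 3.69 in Cat 1416430_at (others 7.87 to 8.24) and 5.94 in Gpx4 1451695_a_at. Vehicle-treated mouse 3 read 3.55 in Gpx4 1451695_a_at, vehicle-treated mouse 7 read 11.53 in Gpx4 1456193_x_at, and WT mouse 4 of week 15 read 5.52 in Sod1 1435304_at.

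The SOD1 effect differed between the weeks, by the test of the difference itself, in 8 probe sets. The difference (week 15 minus week 11, log2) was -0.999 for Sod1 1451124_at, -0.91 and -1.08 for Txn2, -1.35 for Txnrd1, -1.32 and -1.68 for Gclm, -1.65 for Gss and -1.10 for Me1.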

How the results depend on the processing

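The count of called members stayed at 0 between G-CSF and vehicle and between G-CSF and WT under all 12 alternatives and without any 1 mouse. At week 15 it was 0 in place of 1 under quantile normalization and with the array SD as a covariate, and 0 to 1 without any 1 mouse. Between the weeks it was 0 in place of 1 with the array SD, and 1 to 1 without any 1 mouse. With that covariate the difference between the weeks of Sod2 1417193_at was 0.31 in place of -0.89, and the cause was not tested. Without WT mouse 6 of week 11 it was -0.40. At week 11 array weights gave 1 (Gpx4 1451695_a_at) in place of 0, and leaving out 1 mouse gave 0 to 1. Between WT mice of both weeks the count was 0, but 1 with the groups of the comparison alone (Gpx1), 2 with array weights and 2 without the 3 arrays that stood apart (Gpx1 and Prdx3), and 0 to 2 without any 1 mouse. Of the surrounding lists, 1 in place of 7 was called between the weeks under quantile normalization, and 2 in place of 1 at week 11 with no fold limit.

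Mouse numbers did not pair the samples, since deviations of same-numbered mice correlated at -0.00752 on average and 4 of 35 arrays correlated best with their own number. With the number as a replicate block the Sod1 difference between the weeks was -0.96 (adjusted p = 0.0871), the Sod2 difference at week 15 was -0.71 (adjusted p = 0.0755), and 1 member (Gpx1) was called between WT mice in place of 0. GCRMA pulls dim probe sets such as Sod1 1447761_x_at to a low level, where differences are not detectable.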
